A study of Mus musculus with 10 samples.

Results

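The genes described are 6 STAT transcription factors (Stat2, Stat3, Stat4, Stat5a, Stat5b and Stat6) and 3 of their inhibitors (Socs1, Socs2 and Socs3) in cultured primary microglia of the mouse, macrophages that reside in brain tissue. They were found by gene symbol in an array table in which 18976 genes had a row (a probe set) of their own. All 9 had such a row. Altogether 11 rows named a member, 10 of them alone and 1 together with another symbol. The 10 arrays comprised 5 of microglia given 5 ng/ml recombinant human TGFb1 for 24 h and 5 of control microglia given no agent for 24 h. All cells were wildtype, of strain C57BL6, shaken off mixed glial cultures of newborn mice after 14 days and kept without serum during the treatment. These are cells of newborn brain grown in culture, and the labels do not say if each array had a culture of its own.

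The array columns of the table carried names that matched no sample, so no array could be assigned to TGFb1-treated or control microglia. The comparison that the design was made for was therefore not analysed here, and no value below says how a gene differed after TGFb1. What the table gives is 1 median expression value per row, made by the authors, on a linear intensity scale. Its header does not say over which arrays it runs, and it is taken here as the median over the arrays of the table, treated and control pooled. It comes with no SD. It is named the level here, and a percentile is the share of the 18976 genes with a lower level.

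Cytokines bind receptors that carry Janus kinases, which phosphorylate a STAT protein. The STAT then pairs through its SH2 domain, enters the nucleus and drives target genes, among them genes for SOCS proteins. SOCS proteins block the receptor or the kinase and so close a negative feedback loop. In microglia this route carries the responses to interferons, to interleukin-6 and interleukin-10, to interleukin-4 and to GM-CSF.

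Of the 6 STAT genes, 5 lay above the median level of all genes, which was 15.8, and 4 lay above the 75th percentile of 73.5. Of the 3 SOCS genes, Socs3 alone lay above the median and none above the 75th percentile. The median level was 139 over the STAT genes and 10.7 over the SOCS genes.

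**Figure D1:**
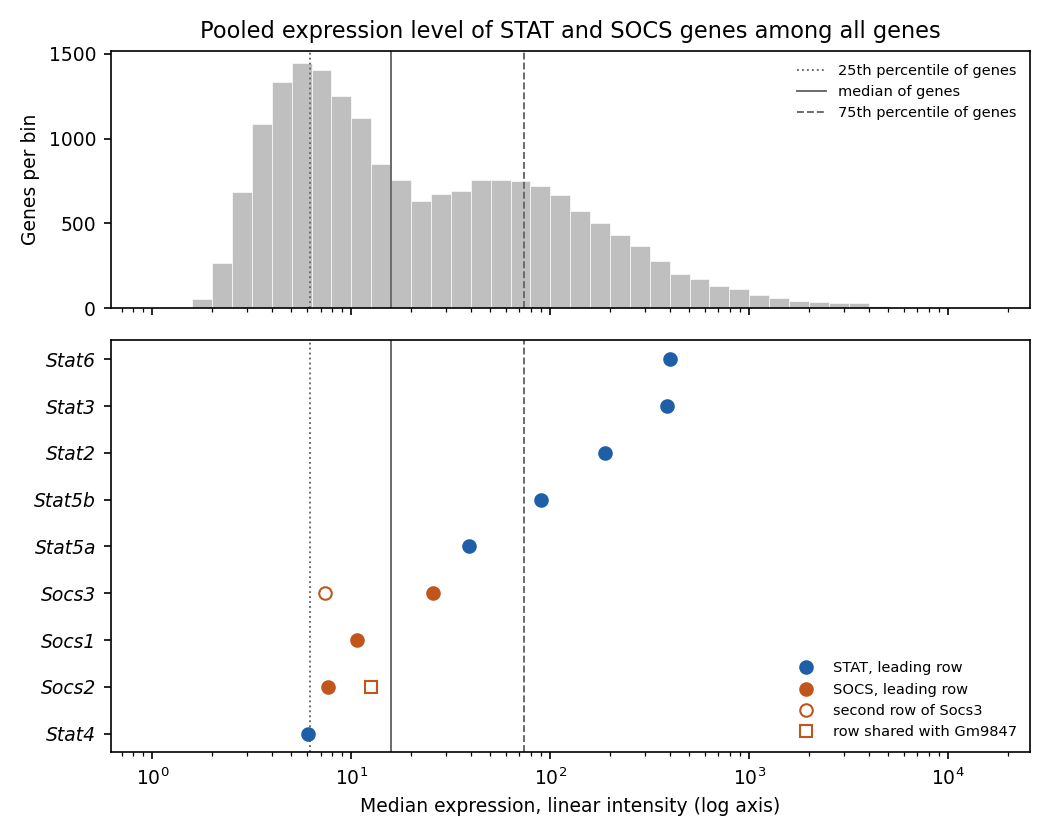
Upper panel, number of genes (vertical axis) in each bin of the pooled median expression, a linear intensity on a log axis. Lower panel, level of each STAT gene (blue) and SOCS gene (orange), with the second row of Socs3 as an open circle and the row that Socs2 shares with Gm9847 as an open square. Stat6 at 399 and Stat3 at 385 stand at the top and Stat4 at 6.06 at the bottom, while vertical lines mark the 25th percentile, the median and the 75th percentile of genes.

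Stat6 (probe set 10366956), the factor that carries interleukin-4 and interleukin-13 signals, had the highest level of the 9, 399 on the linear intensity scale. It stood at percentile 95.1, as number 924 from the top. Stat3 (probe set 10391301), which serves interleukin-6, interleukin-10 and other cytokines, followed with a level of 385 at percentile 94.9. The levels of Stat6 and Stat3 differed by a ratio of 1.04. Stat2 (probe set 10367224), the partner of Irf9 in the complex ISGF3 that answers type I interferon, had a level of 188 at percentile 88.8.

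Stat5b and Stat5a act downstream of GM-CSF, interleukin-3 and growth hormone and are close paralogs. Stat5b (probe set 10391286) had a level of 89.8 at percentile 78.5. Stat5a (probe set 10381172) had a level of 38.8 at percentile 64.2, a ratio of Stat5b to Stat5a of 2.31. Stat4 (probe set 10346168), the factor of interleukin-12 signalling in T cells and natural killer cells, had the lowest level of all 9. Its level of 6.06 stood at percentile 24.3.

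Socs3 (probe set 10393449), the inhibitor of receptors that contain gp130, had the highest level of the SOCS genes, 25.9 at percentile 57.8. A second row of Socs3 (probe set 10383010), built on a single sequence entry, had a level of 7.41 at percentile 30.9. Socs1 (probe set 10437668), which inhibits Janus kinases in interferon signalling, had a level of 10.7 at percentile 41.6. Socs2 (probe set 10372069), known as a brake on growth hormone signalling, had a level of 7.63 at percentile 31.8 on its own row. The row that Socs2 shares with Gm9847, a Socs2 pseudogene (probe set 10394674), had a level of 12.6 at percentile 45.5 and cannot be given to either gene alone.

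Levels of different probe sets also depend on how well their probes bind, so the order of the genes needs a measure of that error. Among the 948 genes with exactly 2 rows of their own, the higher row exceeded the lower by a median ratio of 1.98, and by 1.25 and 4.18 at the lower and upper quartile. The 2 rows of Socs3 differed by a ratio of 3.49, and 29.0% of those 948 genes had a larger one. From Stat6 down to Stat4, the 8 steps between neighbours in the order had ratios of 1.04 to 2.42, all below that upper quartile. Neighbours in the order therefore did not differ by more than rows of the same gene often do. Neighbours in a sorted order are close by construction, so this says little about the order as a whole. Between its ends, Stat6 exceeded Stat4 by a ratio of 65.9, and 0.738% of those 948 genes had a larger one. The ends of a sorted order are the farthest apart by construction, whereas the rows of those genes were not picked in that way. That share is therefore no test of the order.

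Low levels were set beside genes that mark cells other than microglia. The 7 lymphocyte markers on the fixed list had levels of 2.68 for Ms4a1 to 34.4 for Cd4, with a median of 7.24. Stat4 and the leading rows of Socs1 and Socs2 lay at or below 10.7, inside the range of the other 6 markers, of which Cd3e was highest with 12.2. Socs3 with 25.9 lay above those 6 and below Cd4. The 5 other STAT genes lay above Cd4. Among oligodendrocyte markers, however, Cspg4 with 58.0 and Mbp with 56.7 lay above both Stat5a with 38.8 and Socs3. The astrocyte marker Aldh1l1 with 28.6 lay above Socs3, and all other astrocyte and oligodendrocyte markers lay below it. Markers shared by microglia and other macrophages were on the list for the labelled cell type, so it does not set microglia apart from other macrophages. All 10 microglia and macrophage markers lay above the median of all genes, with levels of 40.4 for P2ry12 to 4757 for Cd68. P2ry12 lay below Cspg4 and Mbp.

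Of 7 astrocyte markers 1 lay above the median of all genes, of 7 oligodendrocyte markers 2, and of 5 fibroblast and mural markers 1. Of 6 measured markers of border macrophages and monocytes 4 did, among them Ms4a7 with a level of 2052, while Ccr2 had a level of 3.23. Fewer cells of a type and less RNA per cell cannot be told apart in such bulk samples.

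The sequence behind each row bears on how far a level belongs to 1 gene. Affymetrix probes are 25 bases long, so the 25-base words of each member were looked up in the transcripts of all other genes (GENCODE M21). The words came from the Ensembl transcripts listed for a member that GENCODE M21 holds under its name. Other listed sequence entries gave no words, among them the single entry behind the second row of Socs3. No word of Stat2, Socs1 or Socs3 occurred in another gene, and 0.0265% of the words of Stat6 and 1.37% of those of Stat3 did. For Stat5a the share was 23.8%, all of it in Stat5b, and for Stat5b it was 17.4%, with 942 words in common with Stat5a. For Socs2, 23.0% of the words occurred elsewhere, most of them in Gm9847, and for Stat4, 31.8% occurred in Gm28177, a gene model listed as a processed transcript. Which of these words the array probes cover was not analysed here.

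**Figure D2:**
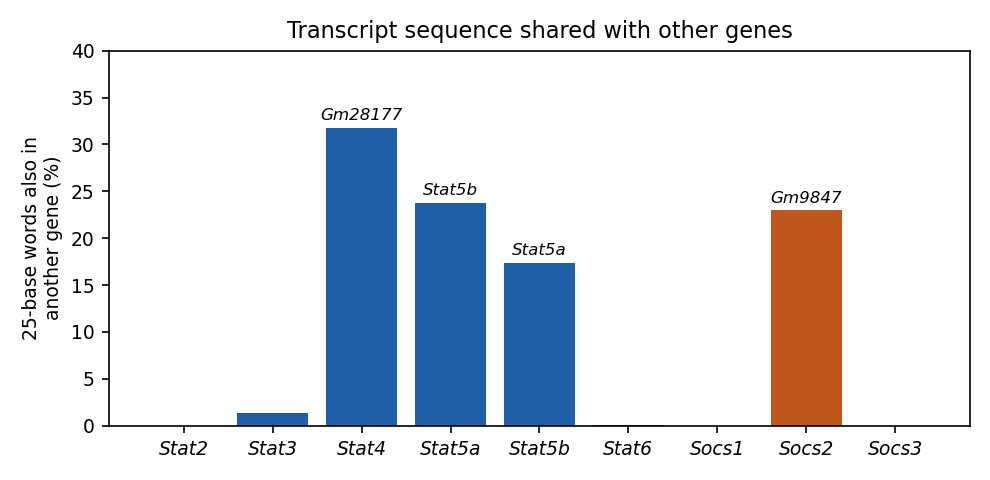
Share in percent (vertical axis) of the 25-base words of each STAT gene (blue) and SOCS gene (orange) that also occur in a transcript of another gene. The words come from the listed Ensembl transcripts found in GENCODE M21, and the gene that holds most of the shared words is written above the bar. Stat4, Stat5a, Socs2 and Stat5b reach 31.8%, 23.8%, 23.0% and 17.4%, and the other 5 genes stay at or below 1.37%.

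The longest run shared by Stat5a and Stat5b was 324 bases, spread over 3 coding exons of each gene. Its longest part within a single exon is shown because a probe placed there could not tell the 2 paralogs apart. It has 152 coding bases and lies in exon 8 of Stat5a at chr11:100874339-100874490 on the plus strand. The same 152 bases lie in exon 7 of Stat5b at chr11:100798234-100798385 on the minus strand (GRCm38 in both cases).
Stat5a and Stat5b: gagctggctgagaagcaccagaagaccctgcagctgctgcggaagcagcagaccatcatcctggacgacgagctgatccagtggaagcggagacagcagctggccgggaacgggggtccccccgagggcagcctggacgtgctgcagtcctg

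Stat5b, Stat5a and Stat3 are direct neighbours among the protein-coding genes of chromosome 11, which also holds Socs3. Stat2, Stat6 and Socs2 lie on chromosome 10, Stat4 on chromosome 1 and Socs1 on chromosome 16. The levels of the 3 neighbours on chromosome 11 were 89.8 for Stat5b, 38.8 for Stat5a and 385 for Stat3. The ratio of 2.31 between Stat5b and Stat5a was exceeded between rows of the same gene in 43.1% of the 948 genes.

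Promoters were searched because STAT and SOCS genes can themselves be targets of the pathway. RefSeq promoters (GRCm38.p6) matched 8 of the 9 genes with 11 start sites, and Socs2 was not among them. In the 250 bases before each start, both strands were searched for 3 motifs. The STAT type motifs were TTC and GAA with 3 bases between them (TTCNNNGAA) and the same with 4 bases between them, which read alike on both strands. The interferon response type motif was GAAA repeated after 2 bases. Of the promoters of 26734 genes, the shares with a match were 8.17%, 6.81% and 3.47% in that order. Of the 8 genes, 1 held the first motif, 1 the second and 3 the third, and 4 held any of them. The share of all genes with any of the 3 motifs was not computed, so the count of 4 has no share beside it. These are matches of letters, and no binding was measured.

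The promoters of Socs1, Stat2 and Socs3 are shown because they hold 5 of the 6 matches, which are in capitals, the sixth being an interferon response type match in the second promoter of Stat4. Each runs from 250 bases before the start to the base before it. Socs1 (chr16:10785537-10785786, minus strand) holds the interferon response type at -83 to -74 and again at -77 to -68, and these matches overlap. Stat2 (chr10:128270248-128270497, plus strand) holds the same motif on the other strand at -222 to -213 and the STAT type with 4 bases between at -210 to -201. Socs3 (chr11:117969367-117969616, minus strand) holds TTCNNNGAA at -154 to -146. For Stat2, Socs3 and the second promoter of Stat4 the bases just after the RefSeq start were not found in a GENCODE transcript of the gene. Those of Socs1 were.
Socs1: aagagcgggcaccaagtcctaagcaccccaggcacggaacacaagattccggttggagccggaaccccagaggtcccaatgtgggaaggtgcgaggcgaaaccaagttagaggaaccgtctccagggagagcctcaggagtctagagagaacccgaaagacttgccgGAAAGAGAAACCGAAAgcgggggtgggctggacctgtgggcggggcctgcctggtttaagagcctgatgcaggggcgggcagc
Stat2: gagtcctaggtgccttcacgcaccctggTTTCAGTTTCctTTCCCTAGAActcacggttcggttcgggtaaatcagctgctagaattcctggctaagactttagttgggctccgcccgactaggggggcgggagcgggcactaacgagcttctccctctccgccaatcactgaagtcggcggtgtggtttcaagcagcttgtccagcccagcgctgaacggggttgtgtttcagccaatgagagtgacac
Socs3: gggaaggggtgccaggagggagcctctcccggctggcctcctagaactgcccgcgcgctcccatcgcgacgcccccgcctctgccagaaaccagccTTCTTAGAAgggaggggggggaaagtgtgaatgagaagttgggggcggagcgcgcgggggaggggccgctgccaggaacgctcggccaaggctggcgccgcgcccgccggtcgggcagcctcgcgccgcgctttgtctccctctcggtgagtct

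**Figure D3:**
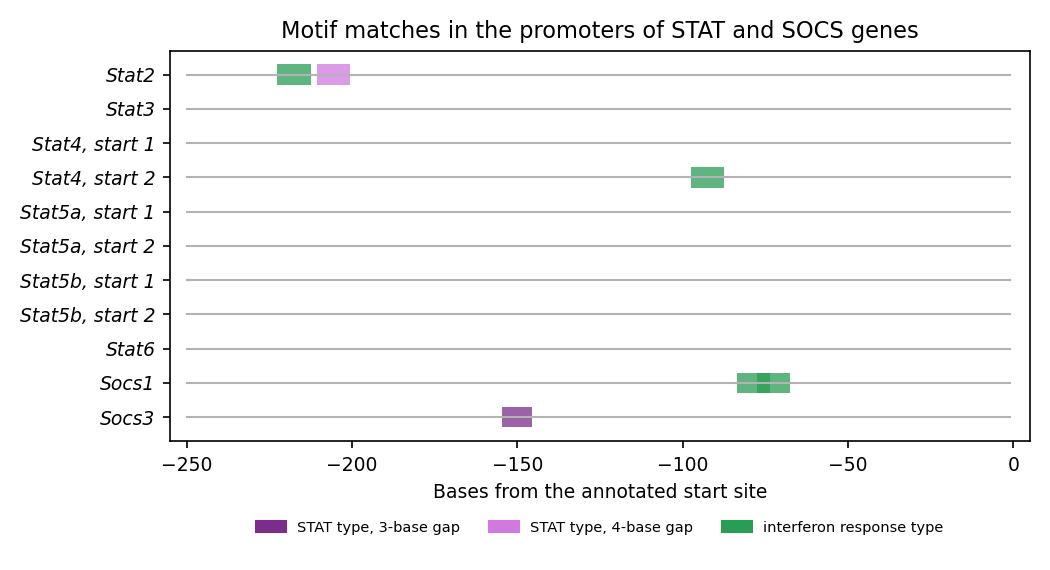
Position of motif matches, in bases from the annotated start site (horizontal axis), in the 11 promoters of 8 STAT and SOCS genes (rows). Boxes span each match, dark purple for the STAT type motif with a gap of 3 bases, light purple for the gap of 4 and green for the interferon response type, and the overlapping pair in Socs1 lies at -83 to -68.

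The pathway annotation in the table placed the 9 genes together and, in part, apart. All 9 were listed under Jak-STAT signaling of KEGG. Insulin signaling and type II diabetes each listed all 3 SOCS genes and no STAT gene, and ubiquitin mediated proteolysis listed Socs1 and Socs3. Adipocytokine signaling listed Stat3 and Socs3, a gene of each class. Chemokine signaling listed Stat2, Stat3 and Stat5b, and ErbB signaling listed Stat5a and Stat5b. All 6 STAT rows named nucleus and cytoplasm as compartments.

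Within the 142 genes of the table under Jak-STAT signaling, Stat6 and Stat3 were numbers 17 and 18 by level. Stat2 was number 33, Stat5b 49, Stat5a 67 and Socs3 71. Socs1, Socs2 and Stat4 followed as numbers 86, 95 and 107. Of the 9 STAT and SOCS genes 6, or 66.7%, lay above the median of all genes, against 53.5% of the 142.

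Of 18 measured cytokine ligands, which act upstream of the STAT proteins, 3 lay above the median of all genes and none above the 75th percentile. Osm, which encodes oncostatin M, and Il15 were highest with levels of 59.5 and 42.2, and Il6 was lowest with 2.45. All 6 receptor genes for interleukin-10 and interferons lay above the 75th percentile, from 123 for Il10ra to 710 for Il10rb and 1136 for Ifngr2.

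Receptor chains of the gp130 family and of the interleukin-4 and common gamma chain group ranged widely in level. Of 6 measured receptors of the gp130 family 4 lay above the median of all genes, with 317 for Il6st, which encodes gp130 itself, 172 for Csf3r, 3.84 for Osmr, the oncostatin M receptor, and 3.05 for Lepr, the leptin receptor. Among 7 receptors of the interleukin-4 and common gamma chain group 6 did, with levels of 1054 for Il2rg, 216 for Il7r and 2.65 for Il13ra2. Il4ra, the interleukin-4 receptor chain that recruits Stat6, had a level of 214.

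Receptor genes for interleukin-12 and interleukin-23 had low levels, as Stat4 did. None of the 3 genes lay above the median of all genes, with 11.2 for Il12rb1, 9.83 for Il12rb2 and 3.51 for Il23r. Upstream of Stat5a and Stat5b, Csf2ra and Csf2rb, the chains of the GM-CSF receptor, had levels of 641 and 696. Csf2rb2, the beta chain that serves interleukin-3 in the mouse, had 796, and Ghr, the growth hormone receptor, had 2.66. Of the 9 genes on that list 5 lay above the median of all genes.

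Among Janus kinases, Jak1 had a level of 564, Tyk2 of 74.0 and Jak2 of 59.2, all above the median of all genes. Jak3 shared its row with Insl3, and that row had a level of 47.7. Irf9, the partner of Stat2, had a level of 223.

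**Figure D4:**
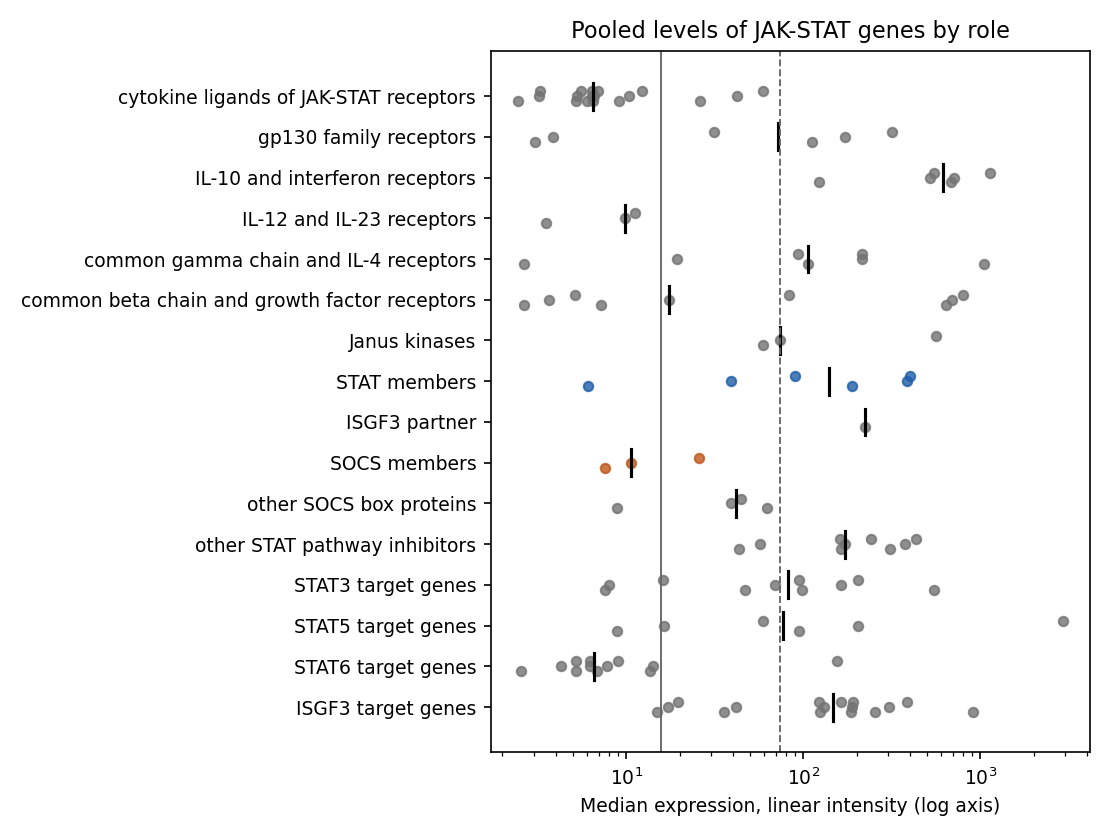
Pooled median expression (horizontal axis, linear intensity on a log axis) of the genes on each fixed list of the pathway (rows, from ligands to targets), with STAT members in blue, SOCS members in orange and all others in grey. Each point is a gene, the black bar is the median of its list, and the vertical lines are the median (solid, 15.8) and the 75th percentile (dashed, 73.5) of all genes.

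Most other inhibitors of the pathway lay above the median of all genes. Of 4 further SOCS box genes 3 did, with 62.6 for Socs4 and 44.7 for Socs7, and Cish, an inhibitor induced by Stat5, had 8.91. All 9 genes of the list of other inhibitors, among them phosphatases and PIAS proteins, lay above that median, and 7 of them above the 75th percentile. Ptpn6, the phosphatase SHP-1, had a level of 433, Ptprc, which encodes CD45, 374 and Pias3, an inhibitor of Stat3, 43.6.

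Target genes were counted for ISGF3, Stat3, Stat5 and Stat6, and no list was fixed for Stat4. Bcl2l1 and Pim1 are on both the Stat3 and the Stat5 list. Of 16 target genes of ISGF3, the complex that contains Stat2, 15 lay above the median of all genes, with levels of 912 for Oasl2, 388 for Ifit3 and 15.0 for Ifi44. Of 10 target genes of Stat3 8 did, with 551 for Mcl1 and 204 for Bcl2l1, both of which protect cells from death, and 7.55 for Timp1. Of 6 target genes of Stat5 5 did, with 2915 for Igf1, 204 for Bcl2l1 and 8.91 for Cish. Of 12 target genes of Stat6 1 did, the mannose receptor gene Mrc1 with a level of 156, while Alox15 had 14.2 and Chi3l3 had 2.54. This count depends on the mark. Above the median of all rows, which was 12.6, lay 3 Stat6 target genes, with Alox15 and Ccl17, a chemokine gene with a level of 13.5, added to Mrc1. The ISGF3 count became 16 with Ifi44 added, and the counts for Stat3 and Stat5 stayed at 8 and 5. The Stat3 target Cebpd with 16.1 and the Stat5 target Ccnd2 with 16.3 lay only just above the median of all genes. The list of Stat6 targets had a median level of 6.56. Levels of lists were described and not tested, and each stands beside a share of 50% of all genes above their own median.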

How the data were processed

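Total RNA of 10 samples was labelled for Affymetrix whole transcript arrays. The number of arrays limits the precision, and no read depth applies. The authors processed the arrays with RMA (submitters' processing notes, version not given in the sources used here), which corrects background, normalizes and summarises probes, and deposited 1 median expression per probe set as a linear intensity. The array model and genome build were not given in the sources used here.

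The table has 28361 rows, of which 21041 name 1 symbol, 2247 several, 5061 none and 12 a date. The row with the highest level led for each symbol, which gave 18976 genes. Its 10 columns of array values matched no sample label and were used in no step. Columns of the authors' own comparison (paired effect sizes, also log2 transformed, with a p-value and an FDR from CyberT) were not used. The planned limma fit, its alternatives, the exact permutation test and the search for genes of like pattern could therefore not be made, and results are descriptions. The members and lists were chosen with earlier results of these data known. Each list was described by its 2 highest genes and its lowest one. Il4ra, Osmr, Csf2ra, Ccl17, Cebpd, Ccnd2, genes on shared rows and some markers were added after their values were seen. KEGG numbers that had lost a leading zero were restored.

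Sequences came from RefSeq (GRCm38.p6) and GENCODE M21 (GRCm38). Python 3.11.15, numpy 2.4.6 and pandas 2.3.3 were used. The ranking, word and motif functions were tested on simulated data.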

Additional observations from a re-analysis of the deposited data

How the results depend on the processing

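No paired analysis was possible because no array column could be matched to a sample, and for the same reason no replicate could be left out and no fit could be repeated with other settings. With no spread between arrays, a shift of more than 5 percentile points was counted as a change. Ranking among all 28361 rows in place of the 18976 genes shifted no member by more than that. The largest shifts came close to that mark, with Socs2 going from percentile 31.8 to 36.72 and Stat4 from 24.28 to 29.15. Stat2, Stat3 and Stat6 moved slightly down, and all other members moved up. Socs3 stood at percentile 57.8 on its leading row and at 30.9 on its lowest row. Socs2 stood at 31.8 on its own row and at 45.5 on the row shared with Gm9847, an alternative chosen after seeing the data. With the median of all rows as the mark, also chosen after seeing the data, 3 Stat6 target genes in place of 1 lay above it. For ISGF3 target genes the count was 16 in place of 15. A filter on expression was not run, because it would select on the level itself.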
